A study of Hordeum vulgare with 12 samples.

Results

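The row-type genes of barley (Hordeum vulgare) decide whether the lateral spikelets of the spike become fertile. This account covers VRS1, INT-C, VRS2 and VRS4 in mutant and wild-type (WT) inflorescences. The genes were chosen by a list of 5 identifiers, and 4 of them were rows of the deposited table of 29014 genes. The identifier given for VRS3, HORVU1Hr1G051010, was not analysed here. The symbols come from that list, because the table gives identifiers without names.

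Each spikelet triplet of barley has a central spikelet and a lateral one on either side. VRS1 is a homeodomain-leucine zipper transcription factor that represses lateral spikelet growth, and plants that lose it set grain on the lateral spikelets too. INT-C, also called VRS5, is a TCP transcription factor related to maize TEOSINTE BRANCHED, and it restrains lateral spikelets and tillering. VRS2 is a SHORT INTERNODES family protein linked to hormone patterning of the spike. VRS4 is a LOB domain transcription factor related to maize RAMOSA, and in barley VRS1 is known to need VRS4 for its expression. VRS3 is a histone demethylase that acts upstream of several of these genes.

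The plants were of the cultivar Golden Promise, grown under normal conditions. The 4 groups were the mutant at stage W2.0, WT at W2.0, the mutant at W3.5 and WT at W3.5, with 3 libraries each from pooled spikes. W stands for the Waddington scale of spike development, on which W2.0 is the double-ridge stage and W3.5 falls in early floret development. The genotype label reads mutant, its library names carry the code F4 without explanation, and the series title names FASCIATED EAR genes. No source used here gives the mutated gene or allele, so it was not checked. In maize, loss of genes of this name enlarges the inflorescence meristem. The series text names W3.0 where the sample labels name W3.5, and the sample labels were followed.

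The table holds 1 value per group and gene, the authors' mean over 3 libraries in FPKM, which scales reads by gene length and depth. The members' single libraries could not be told, so their values carry no error between libraries, no test was run on them, and every difference below is one of 2 means with no replicate check. Depth behind the means, worked out from the values, was 63298092 to 75896357 reads per library. It is fixed only up to a small whole factor, and the smallest that gave whole numbers was taken. The read counts and counting errors given here rest on it. INT-C in the mutant at W2.0, the lowest value of the 16, rested on about 138 reads per kilobase of gene over 3 libraries, a counting error of 8.53% for a gene of 1 kilobase. All other values rested on 440 reads per kilobase or more. A mean of 3 values that cannot be negative limits each of them to 3 times the mean, and that limit is used below. Replicate spread was seen in 3135 other genes of 1 to 4 FPKM whose single libraries could be worked out from the means. Over those with a group mean of at least 1 FPKM, the median coefficient of variation at W2.0 was 35.5% in mutant (2416 genes) and 27.1% in WT inflorescences (2162 genes). At W3.5 it was 27.6% in mutant (2136 genes) and 24.2% in WT inflorescences (2249 genes). In these genes the deepest mutant library of W2.0 had a mean correlation of 0.52 with mutant libraries of W3.5, and of 0.382 with the other pair of its own group. The next deepest had 0.434 with mutant libraries of W3.5 and the shallowest 0.315, and these had 0.433 with each other. Mean correlation within the group was 0.399 for the mutant and 0.473 for WT at W2.0. At W3.5 this mean was 0.551 for the mutant and 0.721 for WT. Results without the deepest library cannot be given for the row-type genes.

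VRS1 (HORVU2Hr1G092290, chromosome 2H), the gene that holds lateral spikelets back, varied widely across the groups. At W2.0 its mean was 2.57 FPKM in mutant and 10.5 FPKM in WT inflorescences, and at W3.5 it was 17.1 FPKM in mutant and 20.2 FPKM in WT inflorescences. The mutant at W2.0 stood apart from the other groups, which were at least 4.08 times higher. INT-C (HORVU4Hr1G007040, chromosome 4H) was the least abundant of the 4 genes in every group. At W2.0 it stood at 0.635 FPKM in mutant and 2.05 FPKM in WT inflorescences, and at W3.5 at 4.47 FPKM in mutant and 4.99 FPKM in WT inflorescences. Its lowest group was again the mutant at W2.0.

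VRS2 (HORVU5Hr1G081450, chromosome 5H) was the most abundant of the 4 in every group. At W2.0 it stood at 7.62 FPKM in mutant and 15.1 FPKM in WT inflorescences, and at W3.5 at 19.2 FPKM in mutant and 21.5 FPKM in WT inflorescences. VRS4 (HORVU3Hr1G016690, chromosome 3H), the LOB domain gene, was the flattest of the 4. At W2.0 it stood at 7.13 FPKM in mutant and 6.68 FPKM in WT inflorescences, and at W3.5 at 9.11 FPKM in mutant and 11.6 FPKM in WT inflorescences. Which neighbours in these orders differ beyond replicate spread cannot be told from means. In whole inflorescences, fewer cells of a type and less RNA per cell cannot be told apart.

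**Figure D1:**
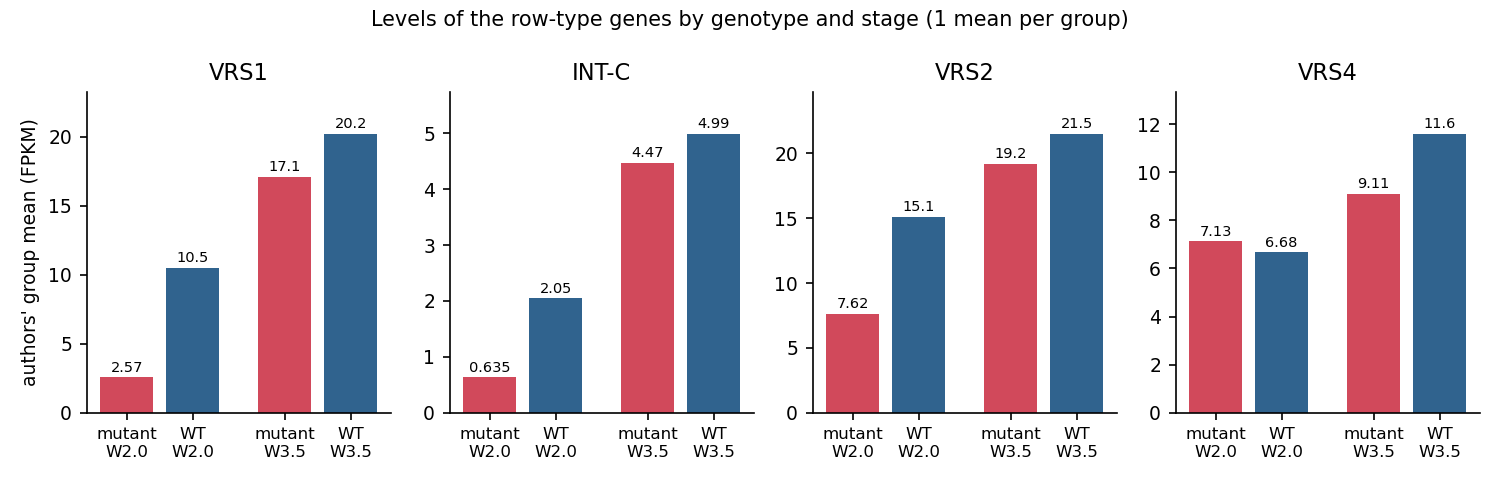
Authors' group means in FPKM (vertical axis, from 0, a separate scale per gene) for VRS1, INT-C, VRS2 and VRS4, with the mutant in red and WT in blue at each stage. The bars carry no error because single libraries of these genes are not known; the mutant at W2.0 is the lowest bar for VRS1 (2.57 FPKM), INT-C (0.635 FPKM) and VRS2 (7.62 FPKM) and not for VRS4 (7.13 FPKM).

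VRS1, INT-C and VRS2 shared 1 order of groups. From low to high it ran mutant W2.0, WT W2.0, mutant W3.5 and WT W3.5. Of the 19367 genes that reached 1 FPKM in any group, 1192 (6.15%) had this order. VRS4 had the first 2 groups exchanged, as did 7.93% of genes, but its means there lay only 1.07-fold apart. Against all genes, VRS2 in WT at W3.5 stood above 68.4% of them and INT-C in the mutant at W2.0 above 1.91%.

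The first comparison was mutant against WT at W2.0, the double-ridge stage, when spikelet primordia first appear. VRS1 was 4.08-fold lower in the mutant, INT-C 3.23-fold lower and VRS2 1.98-fold lower, while VRS4 was 1.07-fold higher. On the log2(FPKM + 1) scale, which understates differences of low genes, these were -1.68 for VRS1, -0.90 for INT-C, -0.90 for VRS2 and 0.08 for VRS4. The median of the 4 was -0.90, against 0.02 over all 19367 genes. VRS1 was the 1 member at least 2-fold lower on this scale, in a comparison where 1.9% of genes were. VRS1 ranked 141 from the lowest of all genes, VRS2 428 and INT-C 430.

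The limit on single libraries can be set against these means. No mutant library at W2.0 can have held more than 7.71 FPKM of VRS1, which is below the WT mean of 10.5 FPKM. For INT-C the limit was 1.9 FPKM in a mutant library, below the WT mean of 2.05 FPKM. For VRS2 it was 22.8 FPKM, above the WT mean of 15.1 FPKM, so a single mutant library could have matched WT. Whether the libraries of the genotypes overlap cannot be told for any of the 4 genes. Among the 63 genes of 1 to 4 FPKM with known libraries whose mutant mean passed the same 2-fold limit downward at W2.0, the libraries did not overlap in 19 (30.2%). The highest mean of each of the 4 row-type genes lay above 4 FPKM, so this share is not a rate for them.

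At W3.5 the genotypes lay closer together. All 4 genes had a lower mean in the mutant, by 1.27-fold for VRS4, 1.18-fold for VRS1, 1.12-fold for VRS2 and 1.12-fold for INT-C. The log2 differences were -0.32 for VRS4, -0.23 for VRS1, -0.16 for VRS2 and -0.13 for INT-C, with a median of -0.19 against -0.04 over all genes. None was at least 2-fold lower, as 0.805% of genes were. VRS4 had the largest difference of the 4 here and the smallest at W2.0. Of all genes, 14.9% were as low as VRS4 or lower.

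The difference between the genotype effects of both stages was 1.46 for VRS1, 0.77 for INT-C, 0.74 for VRS2 and -0.40 for VRS4 on the log2(FPKM + 1) scale, W3.5 minus W2.0. A positive value means that the mutant lay further below WT at W2.0 than at W3.5. VRS1 passed a value of 1, as 2.97% of genes did in that direction. The median over all genes was -0.07.

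**Figure D2:**
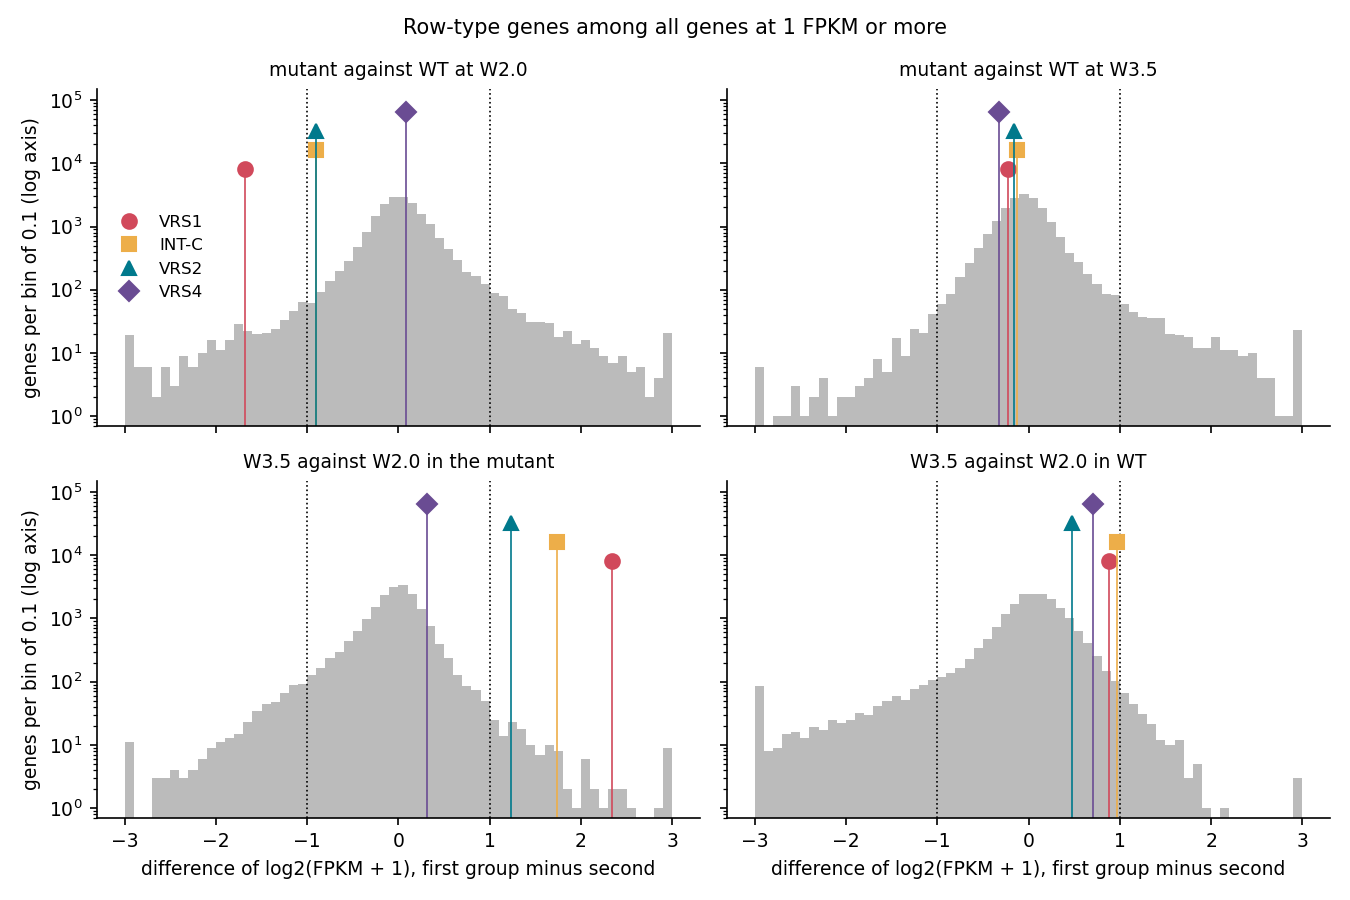
Histograms of the difference of log2(FPKM + 1) between group means for all 19367 genes (horizontal axis, first group minus second; values beyond 3 in size are drawn in the end bins; vertical log axis, genes per bin), with VRS1, INT-C, VRS2 and VRS4 marked at heights chosen for legibility and dotted lines at a 2-fold difference. VRS1 lies at -1.68 between the genotypes at W2.0 and at 2.34 between the mutant's stages, in the sparse tails of the histograms, while at W3.5 the 4 genes lie between -0.32 and -0.13.

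The stage comparison in the mutant gave the largest differences of VRS1, INT-C and VRS2, but not of VRS4. VRS1 was 6.65-fold higher at W3.5, at 17.1 FPKM against 2.57 FPKM at W2.0. INT-C was 7.04-fold higher, VRS2 2.52-fold and VRS4 1.28-fold. The log2 differences were 2.34 for VRS1, 1.74 for INT-C, 1.23 for VRS2 and 0.31 for VRS4, a median of 1.48 against -0.02 over all genes. VRS1, INT-C and VRS2 were at least 2-fold higher, 3 of the 4 members, where 0.733% of all genes were. VRS1 ranked 15 from the highest of 19367 genes, INT-C 32 and VRS2 95. Each mutant library at W2.0 lay below the mutant's W3.5 mean for VRS1 (limit 7.71 FPKM) and INT-C (limit 1.9 FPKM), and this cannot be said for VRS2. Of 20 genes of 1 to 4 FPKM with known libraries that passed 2-fold upward here, 13 (65%) had libraries that did not overlap. This share too is not a rate for the row-type genes, whose highest means lay above 4 FPKM.

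In WT all 4 genes were higher at W3.5, by smaller factors than in the mutant except for VRS4. VRS1 was 1.93-fold higher, at 20.2 FPKM against 10.5 FPKM at W2.0, INT-C 2.43-fold, VRS4 1.74-fold and VRS2 1.42-fold. On the log2(FPKM + 1) scale the differences were 0.97 for INT-C, 0.88 for VRS1, 0.71 for VRS4 and 0.48 for VRS2, a median of 0.80 against 0.06 over all genes. None reached a value of 1, as 1.08% of genes did upward. INT-C passes 2-fold as a plain ratio, without the added 1 FPKM. VRS4 was the 1 member whose ratio between the stages was larger in WT than in the mutant. The mutant and WT stage comparisons share no library, but each shares a group with the genotype comparisons above.

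Relative to its own level in WT at W3.5, VRS1 stood at 12.7% in the mutant and 51.9% in WT at W2.0, and at 84.7% in the mutant at W3.5. INT-C stood at 12.7% in the mutant and 41.1% in WT at W2.0, and at 89.5% in the mutant at W3.5. VRS2 stood at 35.5%, 70.3% and 89.2% in the same groups, and VRS4 at 61.5%, 57.6% and 78.5%. The mutant thus had a smaller share of the WT W3.5 level than WT at W2.0 for all of these genes except VRS4.

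**Figure D3:**
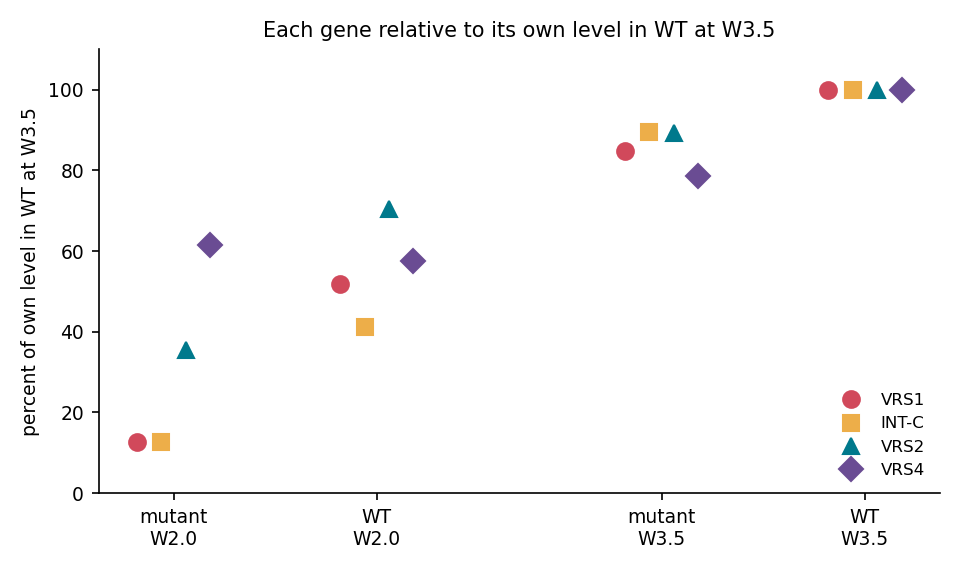
Level of each row-type gene as a percent of its own group mean in WT at W3.5 (vertical axis, from 0) in the 4 groups, with 1 marker per gene and no error, since each point is a ratio of 2 means. VRS1 and INT-C coincide at 12.7% in the mutant at W2.0, where VRS4 stands at 61.5%, and the 4 genes lie between 78.5% and 89.5% in the mutant at W3.5.

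FPKM values are scaled by length and allow ratios between genes, but the gene lengths used are not known. Reads that VRS1 may share with the identifier after it, described below, were not tested and would enter its ratios. VRS1 exceeded INT-C by 4.05-fold in the mutant and 5.11-fold in WT at W2.0, and by 3.83-fold in the mutant and 4.05-fold in WT at W3.5. This ratio spanned 1.33-fold over the groups. It was 4.05 in both the mutant at W2.0 and WT at W3.5. That restates that both genes stood at 12.7% of their WT W3.5 level in the mutant at W2.0. The ratio of VRS1 to VRS4, its known upstream partner, was 0.36 in the mutant and 1.57 in WT at W2.0, and 1.88 in the mutant and 1.74 in WT at W3.5. By these means VRS4 was the more abundant of that pair only in the mutant at W2.0. INT-C relative to VRS4 spanned 5.51-fold, with 0.491 at W3.5 against 0.089 at W2.0 within the mutant. VRS1 relative to VRS2 was 0.338 in the mutant and 0.694 in WT at W2.0, and 0.892 in the mutant and 0.94 in WT at W3.5. These 6 possible pairs rest on the same 16 means.

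The identifier that follows VRS1 in the table, HORVU2Hr1G092300 on chromosome 2H, had almost the same profile. At W2.0 it stood at 3.66 FPKM in mutant and 14.9 FPKM in WT inflorescences, and at W3.5 at 23 FPKM in mutant and 28.9 FPKM in WT inflorescences. Its ratio to VRS1 was 1.42 in the mutant and 1.43 in WT at W2.0, and 1.35 in the mutant and 1.43 in WT at W3.5. Among genes that reached 1 FPKM it was the nearest to VRS1 in pattern, at a distance of 0.09 (Euclidean, between centred log2(FPKM + 1) values over the 4 group means), but by Pearson correlation it was not among the nearest 2. The next gene, HORVU7Hr1G025700, lay at 0.18. The libraries do not mark strand and no annotation of these identifiers was at hand, so reads shared between HORVU2Hr1G092300 and VRS1 were not tested, and both values carry that uncertainty. The identifier before VRS1, HORVU2Hr1G092280, was also lowest in the mutant at W2.0, but with smaller differences on the log2(FPKM + 1) scale. It stood at 1.22 FPKM in mutant and 1.52 FPKM in WT inflorescences at W2.0, and at 3.07 FPKM in mutant and 2.59 FPKM in WT inflorescences at W3.5. Between the stages it differed by 0.88 in the mutant and 0.51 in WT. Between the genotypes it differed by -0.18 at W2.0 and 0.18 at W3.5.

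**Figure D4:**
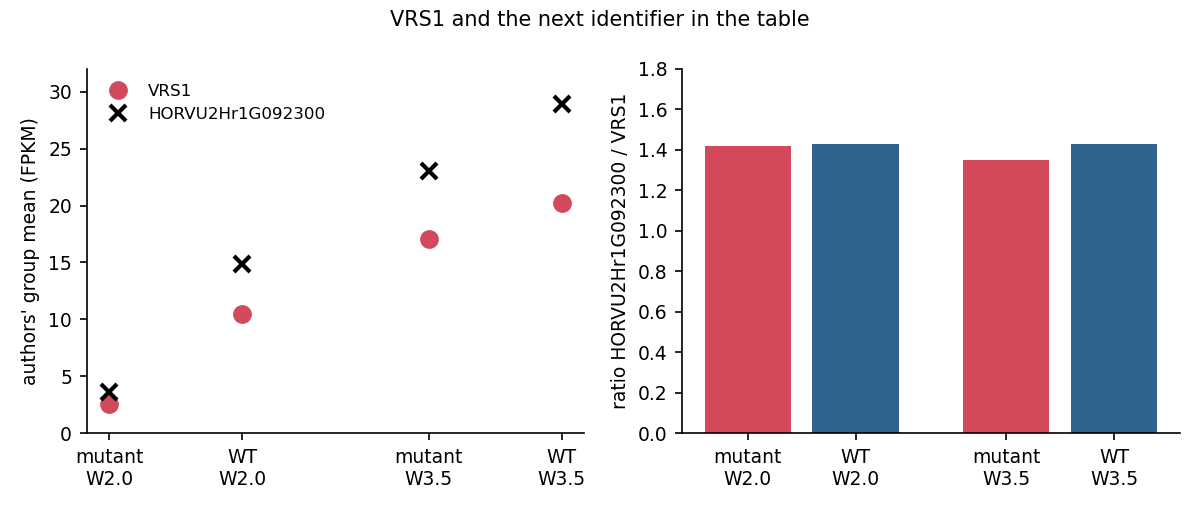
Left, authors' group means in FPKM (vertical axis, from 0) of VRS1 and of HORVU2Hr1G092300, the identifier after it. Right, the ratio of HORVU2Hr1G092300 to VRS1 in each group, with the mutant in red and WT in blue; the ratio lies between 1.35 and 1.43, with no error because each group has 1 mean.

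The identifiers beside the other members had other profiles. HORVU4Hr1G007020 and HORVU4Hr1G007050, beside INT-C, stood at 54.7 and 40.5 FPKM in the mutant and 65.4 and 52.4 FPKM in WT at W2.0. Between the mutant's stages they differed by 0.00 and -0.02 on the log2 scale, where INT-C differed by 1.74. Beside VRS2, HORVU5Hr1G081430 was lower in the mutant at W2.0, at 3.51 FPKM against 6.41 FPKM in WT, but differed by -0.11 between the mutant's stages, and HORVU5Hr1G081460 stayed at 0.2 FPKM or below in all groups. Beside VRS4, HORVU3Hr1G016630 and HORVU3Hr1G016700 differed by -0.05 and -0.03 between the mutant's stages, where VRS4 differed by 0.31. In the other comparisons HORVU3Hr1G016700 had the sign of VRS4, with 0.15 and -0.18 between the genotypes at W2.0 and W3.5 and 0.31 between the stages in WT.

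The genes nearest in pattern to the other members lay on several chromosomes. For INT-C they were HORVU4Hr1G079710 at a distance of 0.06 and HORVU7Hr1G025200 at 0.21. For VRS2 they were HORVU2Hr1G025280 at 0.10 and HORVU2Hr1G111620 at 0.11. For VRS4 they were HORVU1Hr1G029770 at 0.03 and HORVU7Hr1G088090 at 0.04. Within a distance of 0.25 there were 2 genes each for VRS1 and INT-C, 5 for VRS2 and 580 for VRS4, so many genes had a profile close to that of VRS4. That profile was not flat against all genes, since 3.48% of them reached or passed its stage difference of 0.71 in WT. By Pearson correlation 0 of the 8 genes named as alike, HORVU2Hr1G092300 included, were among the nearest 2, and with 4 means per gene likeness describes these groups only.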

How the data were processed

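RNA-seq was done on inflorescences in 12 libraries, 3 for each of 4 groups. Per the submitters' processing notes, FastQC, HISAT2 2.0.0 and HTSeq 0.11.2 were used; no source used here gives build or annotation. The deposited table holds FPKM as 1 mean per group by the authors, a unit read from the values because no header states it. FPKM hides reads shared between overlapping or near-identical genes.

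Differences were computed on log2(FPKM + 1), over 19367 genes that reached 1 FPKM in any group, and called at 2-fold. Library depths were derived from ratios of low values, where 736 genes left residuals with an SD of 2.88e-10 FPKM against 2.89e-10 from rounding; only solutions within rounding were accepted. Reads of single libraries were then searched for the 4207 genes whose highest mean lay between 1 and 4 FPKM, and for INT-C. A solution was accepted above a probability of 0.99, which gave 3135 genes. INT-C reached 0.601 and was not accepted, and the other members, at higher levels, were not searched. The planned limma tests therefore had no row-type gene to test. Recovered genes may favour low spread, which was not tested. Nothing says that the 3 libraries of a group came from separate plantings, though the labels call them biological replicates.

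The members, lists and comparisons were chosen with earlier results of these data known. Named genes were the members, the identifiers on either side of each, and the 2 genes nearest in pattern. Alternatives covered pseudocounts, scaling of the columns and a 1.5-fold threshold. Software was python 3.11.15, numpy 2.4.6, pandas 2.3.3 and numba 0.67.0.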

Additional observations from a re-analysis of the deposited data

How the results depend on the processing

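No direction of the 4 row-type genes reversed in the 5 comparisons under the 3 column scalings. Scaling the columns to the same median, upper quartile or sum left every count of members past 2-fold as it was. With a pseudocount of 0.1 or none, 2 members passed 2-fold at W2.0 between the genotypes in place of 1, 1 member in place of 0 between the stages in WT, and 2 in place of 1 for the difference between the genotype effects; INT-C was the member added each time. The share of all genes that passed with these pseudocounts was not computed, so the added calls have no background. With a 1.5-fold threshold the counts were 3, 3 and 3. In the direction of these members, 4.59% (lower), 6.18% (higher) and 6.4% (higher) of all genes passed. In either direction, 11.5%, 13.8% and 16.6% of all genes passed. The counts of 3 in the mutant's stage comparison and of 0 between the genotypes at W3.5 stayed under all of these. At 1.5-fold, 2.61% of all genes passed upward between the mutant's stages and 4% downward between the genotypes at W3.5. In either direction, 9.58% and 8.63% of all genes passed in these comparisons. With Pearson correlation in place of distance, 0 of the 8 genes named as most alike were among the nearest 2, so that list depends on the measure. No paired analysis was possible because the table holds 1 mean per group and its columns carry no replicate number. Leaving out libraries, limma-voom, RLE size factors and the other settings for single libraries were not run, since no row-type gene had accepted single-library values. Counting error was 8.53% for INT-C in the mutant at W2.0 for a gene of 1 kilobase and 4.77% or less for the other values; the spread between libraries of these genes is not known.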
